A study of Mus musculus with 12 samples.

Results

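Glucose handling and the response to low oxygen were followed through 32 genes, chosen by name as members of these pathways and looked up by symbol among the 47643 gene IDs of the count files. All 32 were found on GRCm38, and all 32 passed the filter on low counts that left 14034 genes for testing. The libraries came from sorted bone-marrow monocytes of mice on a C57BL/6 background, either WT or Nr4a3 KO, which lack the orphan nuclear receptor NR4A3. Cells were taken undifferentiated, straight after sorting, or after 1 or 2 days of culture in medium holding IL-4 together with GM-CSF, a cytokine pair that turns monocytes into dendritic cells. The 6 groups (WT monocytes, KO monocytes, WT day 1, KO day 1, WT day 2 and KO day 2) held 2 libraries each. The cultured groups shared both cytokines and none was cultured without them, so time in culture and cytokine exposure cannot be told apart. The labels give no age of the mice, no oxygen level and no number of mice per library.

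Glycolysis splits glucose into pyruvate, with the first steps using ATP and the later ones returning it, and lactate dehydrogenase lets the pathway run on when pyruvate is not burned in mitochondria. Most of its enzymes come in several isozymes encoded by separate genes, which differ in kinetics and in the cell types that use them. The transcription factor HIF-1 is broken down when oxygen is present, through prolyl hydroxylases, and otherwise switches on glycolytic genes together with genes of angiogenesis and mitophagy. In myeloid cells it is also switched on by inflammatory signals, and activated dendritic cells are known to lean on glycolysis.

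Depth ran from 5905266 to 18447405 reads in genes per library, and the 32 genes together took between 0.716% and 1.11% of them. Levels are CPM, read counts scaled to a common library size with TMM factors, and in every pair of values replicate 1 comes first. In bulk RNA fewer cells of a type and less RNA per cell cannot be told apart. Nr4a3 had 11194 and 10741 reads in WT day 2 against 234 and 236 in KO day 2, but 76 reads in the library labelled KO day 1 replicate 1 against 0 in its partner. That library also sat apart from the other day 1 libraries over all genes, and so did WT monocytes replicate 2 from the other monocytes. The 6 dendritic cell markers summed to between 179.9 and 224 CPM in monocytes, 6671 to 9938 CPM at day 1 and 14545 to 22792 CPM at day 2, while the 5 monocyte markers went from at least 7477 CPM to at most 2357 CPM at day 2. Not every marker followed its sum. In the edgeR test against monocytes of the same genotype, 4 of the 6 dendritic cell markers were higher and 1 lower at day 1 in both genotypes. Of the 5 monocyte markers 1 had a log2 fold change above 0 on both days in both genotypes. By the dates in the file names, day 2 came from a separate pair of experiments, so stage and experiment cannot be told apart in any comparison of day 2 with an earlier stage. Both day 2 replicate 1 libraries also carried Xist, which females transcribe from the silenced X, at 885 and 794 CPM, and no other library exceeded 1.01 CPM, so at day 2 sex and experiment cannot be told apart.

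The binding core of HIF-1 is the letters ACGTG or GCGTG, and promoters were searched for them because the choice of genes by name did not use sequence, although many of the 32 are known HIF-1 targets. The windows, from RefSeq on GRCm38.p6, run from 250 bases before to 50 bases after a gene's start. A window was found for 29 of the 32 genes (43 windows in all) and none was held for Slc2a3, Ndrg1 and Bnip3l. ACGTG or GCGTG, searched on both strands, stood in 34 of the 43 windows (79.1%), against 43.8% of all 32851 windows. By letters, ACGTG stood in 23 of them, against 19.6% of all windows, and GCGTG in 23, against 32.4%. ACGTG also lies inside the E-box CACGTG, so the matches overlap with that motif, and the windows were not matched for base composition. Some windows of the same gene overlap, as for Aldoa, Eno1 and Pfkm, so 1 site can count in more than 1 window. By gene, 26 of the 29 had ACGTG or GCGTG in at least 1 window, and the share by gene over all genes is not given. The NR4A monomer motif AAAGGTCA stood in 1 of the 43 windows, at Eno1, and in 1.51% of all windows. Windows of 4 genes whose levels are described further on are printed 5′ to 3′ on the gene's strand, with every ACGTG or GCGTG of either strand in capitals (CACGT and CACGC are the reverse complements). They are the lactate dehydrogenase gene Ldha (chr7:46845554-46845853, plus strand), the platelet-type phosphofructokinase gene Pfkp (chr13:6648722-6649021, minus strand), the muscle-type enolase gene Eno3 (chr11:70656926-70657225, plus strand) and the prolyl hydroxylase gene Egln3 (chr12:54203825-54204124, minus strand).
Ldha: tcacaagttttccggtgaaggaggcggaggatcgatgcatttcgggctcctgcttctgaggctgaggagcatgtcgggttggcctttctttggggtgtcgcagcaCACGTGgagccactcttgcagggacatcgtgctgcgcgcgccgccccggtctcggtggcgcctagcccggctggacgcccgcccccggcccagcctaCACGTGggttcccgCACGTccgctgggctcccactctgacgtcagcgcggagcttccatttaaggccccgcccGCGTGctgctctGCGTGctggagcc
Pfkp: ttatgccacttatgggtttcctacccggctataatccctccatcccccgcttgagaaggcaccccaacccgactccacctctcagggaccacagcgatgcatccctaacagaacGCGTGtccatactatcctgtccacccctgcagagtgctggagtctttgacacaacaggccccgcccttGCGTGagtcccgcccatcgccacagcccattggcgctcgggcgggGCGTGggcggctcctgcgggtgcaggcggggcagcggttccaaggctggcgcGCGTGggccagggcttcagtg
Eno3: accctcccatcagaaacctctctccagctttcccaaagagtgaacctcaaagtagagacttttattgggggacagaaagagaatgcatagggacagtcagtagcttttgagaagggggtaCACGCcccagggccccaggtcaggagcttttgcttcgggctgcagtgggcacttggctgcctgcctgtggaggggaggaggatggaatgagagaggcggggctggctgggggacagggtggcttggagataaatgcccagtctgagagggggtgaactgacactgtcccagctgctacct
Egln3: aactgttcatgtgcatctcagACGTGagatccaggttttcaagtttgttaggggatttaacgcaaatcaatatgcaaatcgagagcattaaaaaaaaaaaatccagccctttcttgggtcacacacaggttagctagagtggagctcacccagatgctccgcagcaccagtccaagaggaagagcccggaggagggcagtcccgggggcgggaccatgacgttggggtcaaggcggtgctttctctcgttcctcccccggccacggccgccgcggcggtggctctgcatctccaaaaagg
The printed Ldha window holds 7 such matches, Pfkp 4, Eno3 1 and Egln3 1. A CACGTG reads the same on both strands and was counted once on each. Of the printed windows only that of Ldha holds CACGTG, so its count exceeds its number of separate capital runs. The printed Ldha window is the richer of the 2 windows held for Ldha, and the other (chr7:46846832-46847131) holds 2 matches and no ACGTG. A match is a run of letters, and binding was not measured.

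In each genotype some of the 32 genes were called higher in culture than in monocytes and others lower. In WT cells 3 of 32 rose from monocytes to day 1 and 4 fell, where 11.4% of all genes tested rose and 10.1% fell. At day 2 against monocytes 4 rose and 3 fell in WT, against 12.7% and 9.89% of all genes. In KO cells 3 rose and 4 fell at day 1, against 7.7% and 6.14% of all genes, and 4 rose and 4 fell at day 2, against 9.95% and 7.57%. From day 1 to day 2 the counts were 4 up and 1 down in WT, against 4.67% and 3.51%, and 1 up and 0 down in KO, against 1.5% and 0.542%. In that last comparison 10 of the 32 had an unadjusted p below 0.05, beside 2476 of all 14034 genes. DESeq2 called 3 of the 32 up and 0 down there, and its share of all genes is not given. None of these counts, near the background or not, is read as a result about the 32 genes. The median log2 fold change of the 32 genes at day 1 was -0.11 in WT and -0.09 in KO, beside 0.06 and 0.11 over all genes. At day 2 against monocytes it was -0.11 in WT and -0.24 in KO, beside 0.09 and 0.08. Every call rests on edgeR's quasi-likelihood test at an adjusted p under 0.05 (Benjamini-Hochberg, over all 14034 genes), and adjusted p values without another name are from that test.

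**Figure D1:**
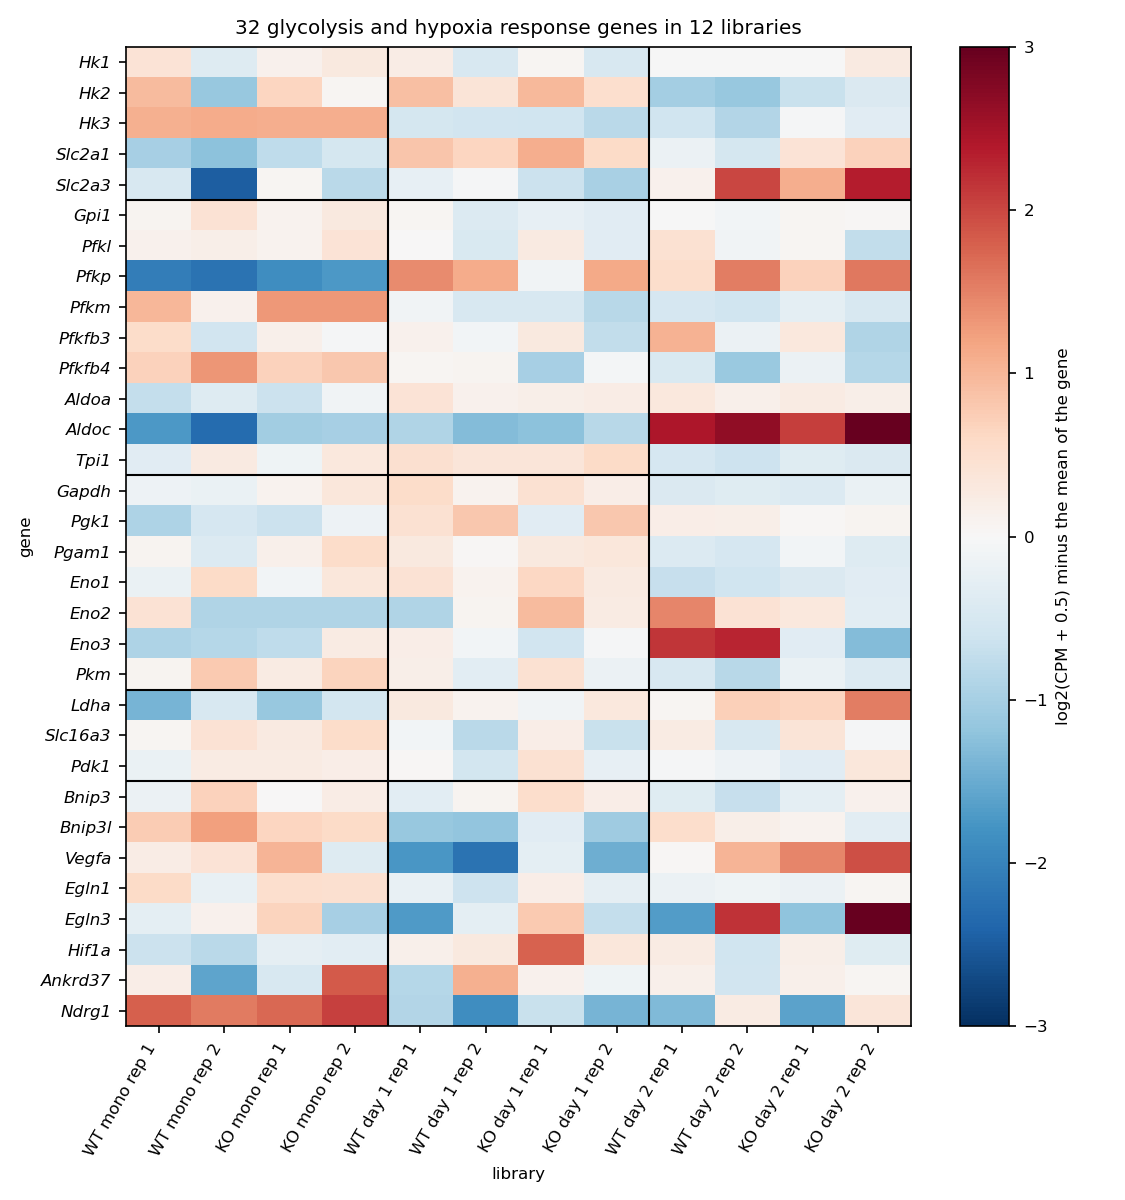
Heat map of the 32 genes (vertical axis, ordered by role) in the 12 libraries (horizontal axis), coloured by log2(CPM + 0.5) minus the gene's mean over all libraries. Pfkp and Aldoc are blue in monocytes and red at day 2, and Hk3 the reverse, with KO day 2 replicate 1 close to its mean. Ndrg1 is red in monocytes, and at day 2 it lies below its mean only in the replicate 1 libraries. The red cells of Egln3 at day 2 are both replicate 2 libraries (11.6 and 22.9 CPM).

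Of the 5 genes of glucose entry and first phosphorylation, Slc2a1 rose and Hk3 fell at day 1 in both genotypes, and Slc2a3, Hk1 and Hk2 did not pass there. Slc2a1 encodes GLUT1, the main glucose transporter of leukocytes. Its levels were 41.9 and 35.6 CPM in WT monocytes, 151 and 133 CPM at WT day 1, and 74.4 and 58.5 CPM at WT day 2. In KO cells they were 49.6 and 59.0 CPM in monocytes, 181 and 126 CPM on day 1, then 113 and 136 CPM at day 2. Within each genotype the cultured libraries did not overlap with monocytes, and in WT day 1 stood above day 2. Slc2a1 rose at day 1 in WT (log2 fold change 1.87 ± 0.28 SE, edgeR adjusted p = 0.00154) and in KO (1.497 ± 0.28, adjusted p = 0.00613). It fell again from day 1 to day 2 in WT by 1.09 ± 0.27 (adjusted p = 0.0369), which left day 2 at 0.78 ± 0.27 against WT monocytes (adjusted p = 0.0641, and 0.0381 by DESeq2), while KO day 2 was up by 1.20 ± 0.27 against KO monocytes (adjusted p = 0.0134). Without any 1 of the 4 libraries compared the WT fall lost its call (edgeR adjusted p 0.125 to 0.269). The KO rises lost theirs without KO monocytes replicate 1 (adjusted p = 0.0797 at day 1 and 0.123 at day 2), and that at day 2 also without KO monocytes replicate 2 (0.0738) or KO day 2 replicate 2 (0.112).

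Slc2a3 encodes GLUT3, a transporter with a high affinity for glucose. It stood at 9.43 and 2.00 CPM in WT monocytes, 11.2 and 13.1 CPM at WT day 1, and 14.8 and 55.4 CPM at WT day 2. In KO cells it stood at 14.0 and 7.52 CPM in monocytes, 8.49 and 6.62 CPM on day 1, then 29.3 and 71.0 CPM at day 2. The high libraries were both replicate 2 libraries of day 2, and no day 2 library overlapped with monocytes of its genotype. The rise at WT day 2 passed (2.60 ± 0.77, edgeR adjusted p = 0.0351) and the KO difference did not (2.23 ± 0.75, adjusted p = 0.0649), though DESeq2 called it (0.0112). Without WT day 2 replicate 2 the WT value was 1.34 (adjusted p = 0.318), and without WT monocytes replicate 2 it was 1.89 (adjusted p = 0.149). The call was also lost in a fit on those groups only (0.136) and without both libraries that stood apart (0.215). Scaled by exon length, Slc2a3 made up 2.22% to 4.55% of the summed level of both transporters at day 1 and 8.80% to 31.4% at day 2.

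Hk3 encodes hexokinase 3, the isozyme typical of myeloid cells. Its levels in monocytes were almost the same in every library, at 195 and 199 CPM in WT and 196 and 198 CPM in KO. They were 63.6 and 61.8 CPM at WT day 1, 60.4 and 52.7 CPM at KO day 1, 60.8 and 50.1 CPM at WT day 2, and 89.4 and 73.0 CPM at KO day 2. All 8 cultured libraries lay below all 4 monocyte libraries. The fall at day 1 was -1.65 ± 0.24 in WT (edgeR adjusted p = 0.00130) and -1.80 ± 0.24 in KO (adjusted p = 0.00133). At day 2 it was -1.83 ± 0.24 in WT (adjusted p = 0.000567) and -1.28 ± 0.24 in KO (adjusted p = 0.00463). Only the KO call at day 2 was lost in an alternative, without KO day 2 replicate 2 (-1.16, adjusted p = 0.0675). Neutrophils also use Hk3, and the 12 neutrophil markers summed to between 1363 and 4634 CPM in WT monocytes, 1942 and 2466 CPM in KO monocytes, 942 and 2274 CPM across the day 1 libraries, and 528 and 1881 CPM across those of day 2. Single neutrophil markers did not all follow these sums. In the edgeR test against monocytes of the same genotype, 1 of the 12 was higher on both days in both genotypes. At day 1 3 were lower in each genotype, and at day 2 4 were lower in WT and 3 in KO. These counts are not read as a result about the markers. The part of neutrophils in the fall of Hk3 was not tested.

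Hk1 and Hk2 did not pass in the edgeR test of any comparison, although Hk2 did under several alternatives. Hk1, the isozyme of most tissues, stayed between 82.3 and 153 CPM in all 12 libraries. Hk2, the inducible isozyme and a HIF-1 target, ran from 56.9 to 246 CPM, with 242 and 57.2 CPM in the WT monocyte libraries alone. Its WT day 1 value was 0.43 ± 0.53 (edgeR adjusted p = 0.607), 1.84 without WT monocytes replicate 1 (adjusted p = 0.00804) and -0.30 without replicate 2. From WT day 1 to day 2 it was -1.76 ± 0.54 (adjusted p = 0.0724), and it passed with DESeq2 (0.0154), with no low-count filter (0.000147), in a fit on those groups only (0.0116) and without both libraries that stood apart (0.00323). Against WT monocytes its day 2 value was -1.34 ± 0.54 (edgeR adjusted p = 0.0971), and it passed with no low-count filter (0.00296), without WT monocytes replicate 2 (0.00402) and without both (0.00182). In KO cells Hk2 at day 2 against monocytes passed in a fit on those groups only (-0.93, edgeR adjusted p = 0.046). It also passed without both libraries that stood apart (-0.99). From KO day 1 to day 2 Hk2 passed with no low-count filter (-1.30, edgeR adjusted p = 0.0127). Scaled by exon length, Hk3 made up 47.6% to 73.0% of the summed hexokinase level in monocytes, 22.9% to 31.0% at day 1 and 37.2% to 47.7% at day 2. Hk2 held the largest share in all 4 day 1 libraries, at 51.1% to 57.4%, against 12.97% to 36.3% in monocytes and 25.7% to 30.1% at day 2.

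In upper glycolysis some isozymes rose while others fell. Pfkp encodes the platelet type of phosphofructokinase, the committed step of the pathway, and lies on GRCm38 at chr13:6579768-6648777 on the minus strand. It stood at 123 and 112 CPM in WT monocytes, 1392 and 1131 CPM at WT day 1, and 746 and 1525 CPM at WT day 2. KO cells had 144 and 158 CPM in monocytes, 481 and 1143 CPM on day 1, then 837 and 1564 CPM at day 2. Every cultured library lay above every monocyte library, and the lowest of the 8, at 481 CPM, was the library labelled KO day 1 replicate 1. The rise was 3.43 ± 0.52 at WT day 1 (edgeR adjusted p = 0.00163) and 3.27 ± 0.51 at WT day 2 (adjusted p = 0.00155). In KO it was 2.43 ± 0.50 at day 1 (adjusted p = 0.0102) and 2.99 ± 0.51 at day 2 (adjusted p = 0.00305). The KO call at day 1 was lost without KO day 1 replicate 2 (1.68, adjusted p = 0.0834) or without either KO monocyte library (0.0935 and 0.0860), and the other calls of Pfkp held in every alternative.

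Pfkm encodes the muscle type of the same enzyme and was scarce. It had 11.3 and 6.01 CPM in WT monocytes, 5.04 and 3.75 CPM at WT day 1, and 3.68 and 3.41 CPM at WT day 2. KO cells had 14.1 and 14.0 CPM in monocytes, 3.72 and 2.85 CPM on day 1, then 4.34 and 3.76 CPM at day 2. Cultured libraries lay below monocytes of their genotype throughout. The KO falls passed, with -2.10 ± 0.46 at day 1 (edgeR adjusted p = 0.0145) and -1.80 ± 0.46 at day 2 (adjusted p = 0.0231), while WT values were -0.98 ± 0.45 and -1.29 ± 0.46 (adjusted p = 0.146 and 0.0674). The WT value at day 2 passed with DESeq2 (0.0491) and without WT monocytes replicate 2 (0.0314), and without both libraries that stood apart WT passed on both days (0.0483 and 0.0238). The differences between genotypes in these changes were -1.12 ± 0.64 and -0.51 ± 0.64 (adjusted p = 1 for both). Both KO calls were lost without most single libraries of their comparison, at day 1 without KO day 1 replicate 2 (0.122) or either KO monocyte library (0.0752 and 0.0797) and at day 2 without any 1 of the 4 (adjusted p 0.0953 to 0.175).

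The liver type, Pfkl, passed in no comparison and ranged from 33.0 to 76.6 CPM. Scaled by exon length, Pfkp made up 42.2% to 45.1% of the summed phosphofructokinase level in monocytes, 76.2% to 92.3% at day 1 and 81.6% to 95.1% at day 2. Pfkl went from 37.1% to 47.9% in monocytes to 4.02% to 16.8% at day 2, and Pfkm from 9.23% to 17.8% to at most 1.79%. These shares depend on the exon lengths of GENCODE M21, in which the exons of all isoforms of a gene are merged. A share can fall without a fall in level: Pfkl per kb of exon averaged 9.24 CPM in WT monocytes, 7.15 CPM at WT day 1 and 9.60 CPM at WT day 2. The plot of isozyme shares gives each library.

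**Figure D2:**
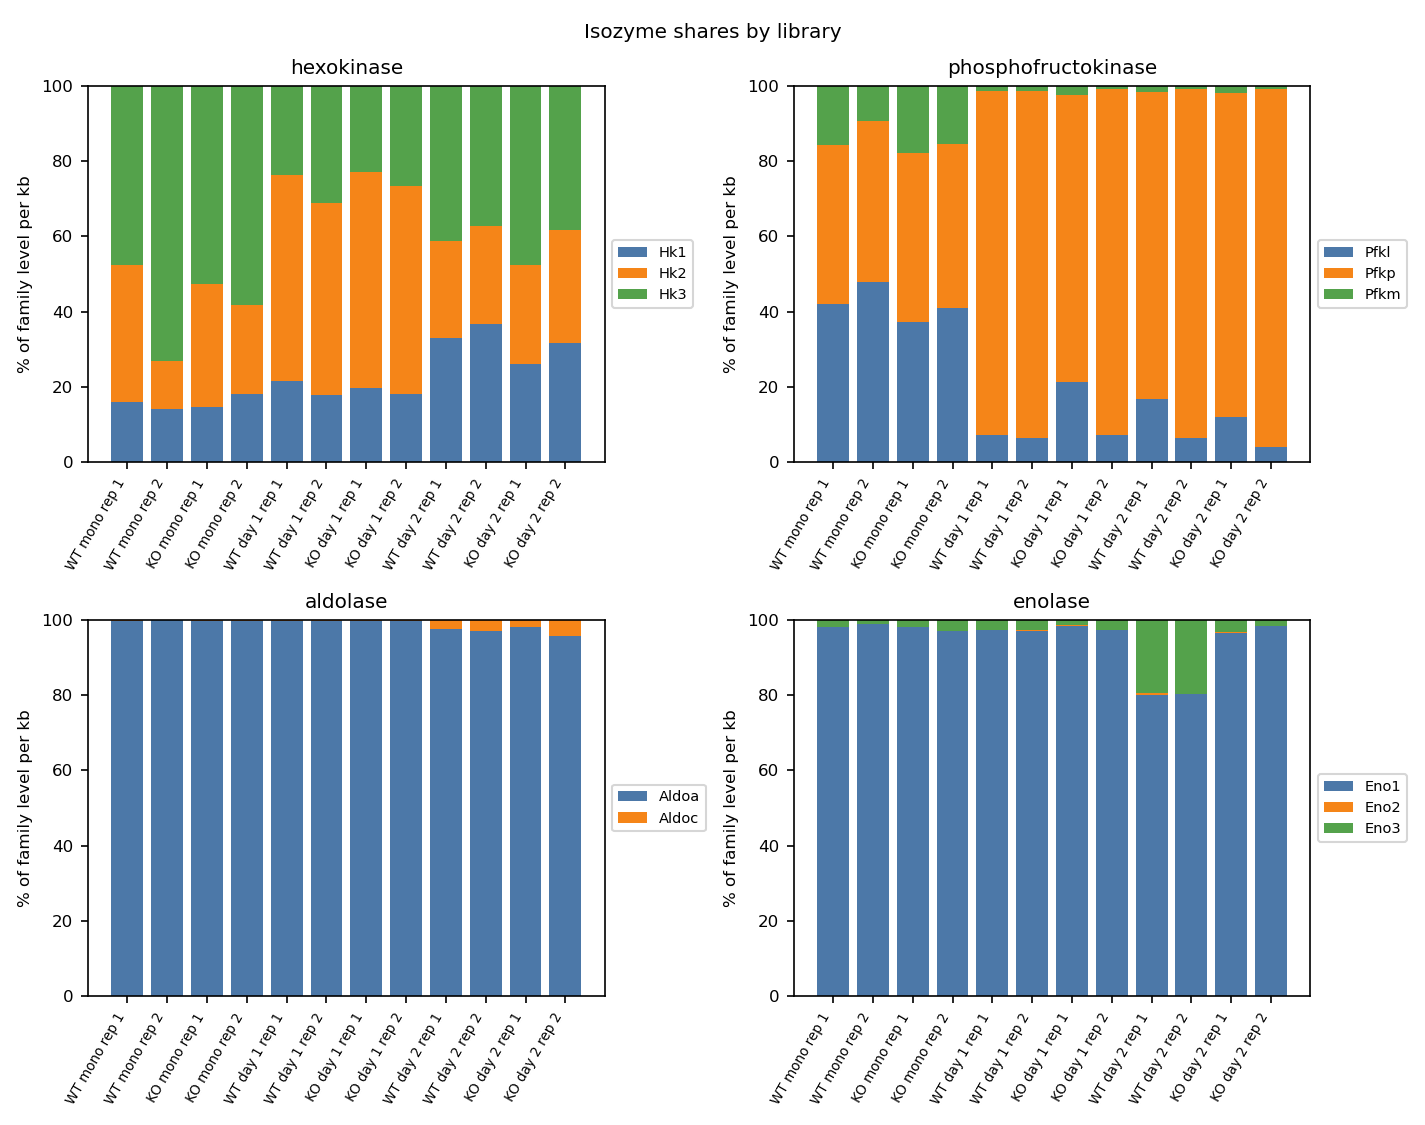
Isozyme shares in 4 enzyme families, as the percentage of the family's summed level per kb of exon (vertical axis) in each of the 12 libraries (horizontal axis, 1 bar per library). Pfkp takes 76.2% or more of phosphofructokinase in every cultured library, and Eno3 reaches 19.5% and 19.7% of enolase in the WT day 2 libraries.

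Pfkfb4 encodes a bifunctional enzyme that sets fructose 2,6-bisphosphate, the main activator of phosphofructokinase. Its levels were 100.5 and 154 CPM in WT monocytes, 64.2 and 65.0 CPM at WT day 1, and 45.0 and 28.3 CPM at WT day 2. KO cells had 100.5 and 108 CPM in monocytes, 30.8 and 59.0 CPM on day 1, then 54.2 and 33.7 CPM at day 2. Every cultured library lay below every monocyte library. The fall passed at day 2 in WT (-1.79 ± 0.39, edgeR adjusted p = 0.00897) and in KO (-1.25 ± 0.39, adjusted p = 0.0491). At day 1 the values were -0.98 ± 0.38 in WT (adjusted p = 0.0932) and -1.21 ± 0.39 in KO (adjusted p = 0.0615). Both passed once the replicate block by experiment was fitted (-0.94, adjusted p = 0.0236, and -1.27, adjusted p = 0.00786). The WT call at day 2 was lost without WT day 2 replicate 2 (-1.501, adjusted p = 0.0847). The KO call there was lost without any 1 of the 4 libraries (adjusted p 0.0703 to 0.287) and with RLE scaling (0.0523). Pfkfb3, the isozyme with the strongest kinase activity and a HIF-1 target, passed nowhere and ranged from 14.8 to 58.5 CPM.

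Aldoc encodes aldolase C, the isozyme of brain, and marked day 2. It had 1.53 and 0.844 CPM in WT monocytes, 3.06 and 2.20 CPM at WT day 1, and 35.4 and 42.0 CPM at WT day 2. KO cells had 2.71 and 2.84 CPM in monocytes, 2.34 and 3.23 CPM on day 1, then 27.5 and 60.8 CPM at day 2. All 4 day 2 libraries stood above all 8 others, whose highest value was 3.23 CPM. Against monocytes the rise at day 2 was 4.99 ± 0.51 in WT (edgeR adjusted p = 0.000136) and 3.99 ± 0.47 in KO (adjusted p = 0.000408). Against day 1 it was 3.87 ± 0.47 in WT (adjusted p = 0.00183) and 3.98 ± 0.47 in KO (adjusted p = 0.00288). The KO rise from day 1 lost its call in a fit on those groups only (adjusted p = 0.0745), and the other calls held in every alternative. Aldoc remained a minor aldolase, at 1.90% to 4.31% of the summed level per exon length at day 2. Aldoa, the isozyme of muscle and blood cells, held the rest, with 656 to 999 CPM in monocytes and 1166 to 1426 CPM in culture.

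Those Aldoa groups did not overlap, yet its log2 fold changes of 0.81 ± 0.29 at WT day 1 and 0.77 ± 0.29 at WT day 2 did not pass (edgeR adjusted p = 0.0727 and 0.0827). Fitted by experiment as a replicate block, the day 1 value passed (0.82, adjusted p = 0.0374), and DESeq2 called both (adjusted p = 0.0300 and 0.0232). Gpi1, which turns glucose 6-phosphate into fructose 6-phosphate, ranged from 499.5 to 895 CPM and passed nowhere. Tpi1, the triose phosphate isomerase, had 306 to 353 CPM at day 1 and 156 to 185 CPM at day 2 without overlap. Its WT difference between these days was -0.98 ± 0.28 (edgeR adjusted p = 0.0586), and it passed with DESeq2 (0.0213), in a fit on those groups only (0.0369) and without both libraries that stood apart (0.0152).

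In lower glycolysis Eno3 stood out at WT day 2. Eno3 (chr11:70657202-70662513, plus strand) encodes the enolase of skeletal muscle, while Eno1 serves most tissues. Its levels were 4.52 and 4.75 CPM in WT monocytes, 10.4 and 8.57 CPM at WT day 1, and 42.0 and 45.6 CPM at WT day 2. In KO cells they were 5.14 and 10.8 CPM in monocytes, 5.89 and 8.86 CPM on day 1, then 7.003 and 3.35 CPM at day 2. WT day 2 lay above all 10 other libraries, and KO day 2 lay within the range of monocytes and day 1 or just below it. In WT cells Eno3 rose by 3.24 ± 0.48 from monocytes to day 2 (edgeR adjusted p = 0.00117), a call that held in every alternative, and by 2.21 ± 0.46 from day 1 (adjusted p = 0.0191). The rise from day 1 lost its call without any 1 of the 4 libraries (adjusted p 0.0777 to 0.134). In KO cells the day 2 value against monocytes was -0.65 ± 0.46 (adjusted p = 0.368).

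KO against WT at day 2, the Eno3 log2 fold change was -3.10 ± 0.48 (edgeR adjusted p = 0.0513), just short of the threshold. It was -2.58 within the first day 2 experiment and -3.77 within the second. With the replicate block by experiment it passed (-3.17, adjusted p = 0.0209), as it did without both libraries that stood apart (0.0289) and by DESeq2 (9.71e-07). It did not pass in a fit on the WT and KO day 2 libraries only (0.301), nor without any 1 of these 4 libraries (adjusted p 0.124 to 0.691). The difference between genotypes in the change from monocytes to day 2 was -3.88 ± 0.66 (edgeR adjusted p = 0.241), and DESeq2 called it (0.000151). Eno3 was 19.5% and 19.7% of the summed enolase level per exon length in the WT libraries of day 2, against 3.29% and 1.49% for KO. Eno1 ranged from 535 to 1323 CPM and passed in no comparison of the edgeR test with all libraries. At WT day 2 against monocytes DESeq2 called it (-0.86, adjusted p = 0.0393), as did edgeR without WT monocytes replicate 1 (0.0194), and against WT day 1 it passed without both libraries that stood apart (0.0306). Its near copy Eno1b was counted separately, at 7.59 to 16.9 CPM. Eno2, the neuronal isozyme, had at most 18 reads in a library and none in 4 of the 12, and only DESeq2 called it, at KO day 1 (adjusted p = 0.0468).

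Pgk1 encodes phosphoglycerate kinase 1, the first step that returns ATP. It had 157 and 211 CPM in WT monocytes, 411 and 530.45 CPM at WT day 1, and 343 and 342 CPM at WT day 2. KO cells had 193 and 270.45 CPM in monocytes, 237 and 529.6 CPM on day 1, then 307 and 317 CPM at day 2. WT day 1 and day 2 lay above WT monocytes, whereas the library labelled KO day 1 replicate 1 overlapped with KO monocytes. The rise at WT day 1 passed (1.36 ± 0.38, edgeR adjusted p = 0.0286), and the KO value was 0.72 ± 0.38 (adjusted p = 0.226). Without both libraries that stood apart the KO value passed as well (1.12, adjusted p = 0.0225). The WT call was lost in a fit on those groups only (0.0844), without either WT day 1 library (0.0657 and 0.135) and without WT monocytes replicate 1 (0.0846).

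Pkm encodes the pyruvate kinase of most tissues and had the highest level per exon length of the 32 genes in monocytes of both genotypes. Its levels were 1636 and 2628 CPM in WT monocytes, 1738 and 1239.8 CPM at WT day 1, and 1094 and 865 CPM at WT day 2. In KO cells they were 1822 and 2423 CPM in monocytes, 2103 and 1368 CPM on day 1, then 1348 and 1155 CPM at day 2. Day 2 lay below monocytes in each genotype, and day 1 overlapped with monocytes. The fall at WT day 2 was -1.12 ± 0.37 (edgeR adjusted p = 0.0494), which RLE scaling moved past the threshold (0.0541). It was also lost in a fit on those groups only (0.159), without WT monocytes replicate 2 (0.210), without either WT day 2 library (0.129 and 0.258) and without both libraries that stood apart (0.126).

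Gapdh, which oxidises glyceraldehyde 3-phosphate and is often used as a reference transcript, passed in no comparison. It had 969 and 952 CPM in WT monocytes, 1591 and 1162 CPM at WT day 1, and 802 and 851 CPM at WT day 2. KO cells had 1168 and 1365 CPM in monocytes, 1495.2 and 1249 CPM on day 1, then 823 and 941 CPM at day 2. All 4 day 2 libraries lay below all 8 others, but the largest log2 fold change of its 6 culture comparisons was -0.74 ± 0.28, from WT day 1 to day 2 (edgeR adjusted p = 0.133). Pgam1, the phosphoglycerate mutase of most tissues, ranged from 75.5 to 156 CPM and passed nowhere. Gapdh, Pgk1, Pgam1, Tpi1 and Ldha have processed pseudogenes, and reads that matched several places were not counted. The effect on their levels was not tested.

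Of Ldha, Slc16a3 and Pdk1, which handle pyruvate and lactate, only Ldha passed. Ldha encodes the lactate dehydrogenase subunit that favours lactate formation. It had 284 and 538 CPM in WT monocytes, 923 and 809 CPM at WT day 1, and 781 and 1224 CPM at WT day 2. KO cells had 340.1 and 516 CPM in monocytes, 698 and 930.2 CPM on day 1, then 1183 and 2177 CPM at day 2. Cultured libraries lay above monocytes of both genotypes, and KO day 2 replicate 2 was the highest of all 12. The rise passed at KO day 2 (1.97 ± 0.44, edgeR adjusted p = 0.0117), with WT at 1.29 ± 0.43 (adjusted p = 0.0546, and 0.0138 by DESeq2). The difference between genotypes in this change was 0.69 ± 0.60 (adjusted p = 1). At day 1 the values were 1.07 ± 0.43 in WT and 0.93 ± 0.43 in KO (edgeR adjusted p = 0.0984 and 0.176), and both passed with the replicate block by experiment (1.16, adjusted p = 0.0134, and 0.94, adjusted p = 0.0391). The KO day 2 call was lost without KO day 2 replicate 2 (1.45, adjusted p = 0.0965) or without either KO monocyte library (0.107 and 0.0523). By group mean per exon length Ldha had the highest level of the 32 genes in KO day 2, and Aldoa had it in WT day 2 and at day 1. Single libraries did not all keep this order. Aldoa lay above Ldha in KO day 2 replicate 1, and Pkm lay just above Aldoa in the library labelled KO day 1 replicate 1. Slc16a3, which encodes the lactate exporter MCT4, ranged from 47.5 to 123 CPM, and Pdk1, a kinase that closes pyruvate's way into mitochondria, from 9.55 to 19.7 CPM. Neither passed in any comparison.

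Among the hypoxia response genes Bnip3l, Ndrg1 and Vegfa fell at WT day 1, and the oxygen sensors were not called. Hif1a, the oxygen-regulated subunit of HIF-1, had 90.7 and 79.7 CPM in WT monocytes, 158 and 172 CPM at WT day 1, and 166 and 92.6 CPM at WT day 2. KO cells had 117 and 113 CPM in monocytes, 485 and 179.5 CPM on day 1, then 160.1 and 109 CPM at day 2. The value of 485 CPM came from the library labelled KO day 1 replicate 1, and the next highest was 179.5 CPM. Hif1a was called at KO day 1 (1.53 ± 0.44, edgeR adjusted p = 0.0447), and without that library the value was 0.60 (adjusted p = 0.338). The call was also lost without either KO monocyte library (0.191 and 0.207) and in a fit on those groups only (0.0772). In WT the day 1 value was 0.95 ± 0.44 (adjusted p = 0.147). These are RNA levels, and HIF-1 is regulated mainly through the stability of its protein.

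Bnip3l encodes NIX, a mitophagy receptor that clears mitochondria, also from maturing red cells. It had 136 and 188 CPM in WT monocytes, 36.2 and 34.6 CPM at WT day 1, and 114 and 89.5 CPM at WT day 2. KO cells had 125 and 118 CPM in monocytes, 62.8 and 37.8 CPM on day 1, then 85.9 and 63.9 CPM at day 2. Day 1 was the low point in both genotypes, without overlap with either other stage. Bnip3l fell at day 1 in WT (-2.20 ± 0.32, edgeR adjusted p = 0.00138) and in KO (-1.28 ± 0.31, adjusted p = 0.0225), and rose from day 1 to day 2 in WT (1.53 ± 0.31, adjusted p = 0.0187). The WT fall held in every alternative. The WT rise was lost without any 1 of its 4 libraries (adjusted p 0.0537 to 0.123), and the KO fall without KO day 1 replicate 2 (0.173) or either KO monocyte library (0.106 and 0.0958). The 9 erythroid markers moved the same way, with sums of 34.1 to 174 CPM in monocytes, 0.0547 to 0.571 CPM at day 1 and 17.7 to 111 CPM at day 2, and Epor at 0 in all but 2 libraries. Their part in the change of Bnip3l was not tested. Bnip3, its paralog and a HIF-1 target, ranged from 7.21 to 19.8 CPM and passed only at WT day 2 without WT monocytes replicate 1 (-1.25, edgeR adjusted p = 0.0330).

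Ndrg1, a hypoxia-induced gene of the N-myc downstream regulated family, was highest in monocytes. It had 248 and 209.5 CPM in WT monocytes, 38.5 and 19.2 CPM at WT day 1, and 28.4 and 85.2 CPM at WT day 2. KO cells had 236 and 298 CPM in monocytes, 44.8 and 26.7 CPM on day 1, then 23.2 and 92.2 CPM at day 2. All 8 cultured libraries lay below all 4 monocyte libraries. The fall at day 1 was -2.99 ± 0.69 in WT (edgeR adjusted p = 0.0124) and -2.90 ± 0.68 in KO (adjusted p = 0.0190), and at day 2 it was -2.20 ± 0.66 in KO (adjusted p = 0.0436). WT day 2 was at -2.01 ± 0.66 (adjusted p = 0.0510, and 0.00936 by DESeq2). The WT call was lost without WT day 1 replicate 2 (0.101) and without both libraries that stood apart (0.0660). The KO call at day 1 was lost without KO day 1 replicate 2 (0.155) or either KO monocyte library (0.0623 and 0.0953), and that at day 2 without KO day 2 replicate 1 (0.206), without either KO monocyte library (0.101 and 0.182) or in a fit on those groups only (0.0580). Both KO calls were lost without both libraries that stood apart (0.0891 and 0.0961).

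Vegfa, the angiogenic growth factor and a classic HIF-1 target, was scarce. It had 3.07 and 3.59 CPM in WT monocytes, 0.413 and 0.163 CPM at WT day 1, and 2.645 and 5.69 CPM at WT day 2. KO cells had 5.71 and 1.84 CPM in monocytes, 1.99 and 0.602 CPM on day 1, then 8.004 and 11.2 CPM at day 2. Behind the WT day 1 values were 5 and 2 reads. WT day 1 lay below all 10 other libraries, and both KO day 2 libraries lay above all 10 others. Vegfa fell at WT day 1 (-3.48 ± 0.92, edgeR adjusted p = 0.0222) and rose from there to WT day 2 (3.81 ± 0.93, adjusted p = 0.0331). The fall lost its call without either WT day 1 library (0.0729 and 0.140) and in a fit on those groups only (0.123), and the rise without any 1 of its 4 libraries (adjusted p 0.0693 to 0.203). In KO the values were -1.56 ± 0.80 and 2.91 ± 0.83 (adjusted p = 0.222 and 0.105), and DESeq2 called the latter (0.00779).

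The oxygen sensors and Ankrd37 passed in no comparison with all libraries and the low-count filter. Egln1, the main prolyl hydroxylase acting on HIF-1, ranged from 29.1 to 66.9 CPM, and at WT day 1 it passed without WT monocytes replicate 2 (-1.03, edgeR adjusted p = 0.0450) and without both libraries that stood apart (0.0236). Egln3, the hydroxylase most strongly induced by HIF-1, ranged from 0.330 to 22.9 CPM, with 0.345 and 11.6 CPM in the WT libraries of day 2, against 0.667 and 22.9 CPM for KO. With no low-count filter edgeR called it from WT day 1 to day 2 (2.57, adjusted p = 0.0194) and at KO day 2 against monocytes (2.34, adjusted p = 0.0197). Ankrd37, an ankyrin repeat gene induced by hypoxia, had at most 68 reads in a library and none in WT monocytes replicate 2.

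**Figure D3:**
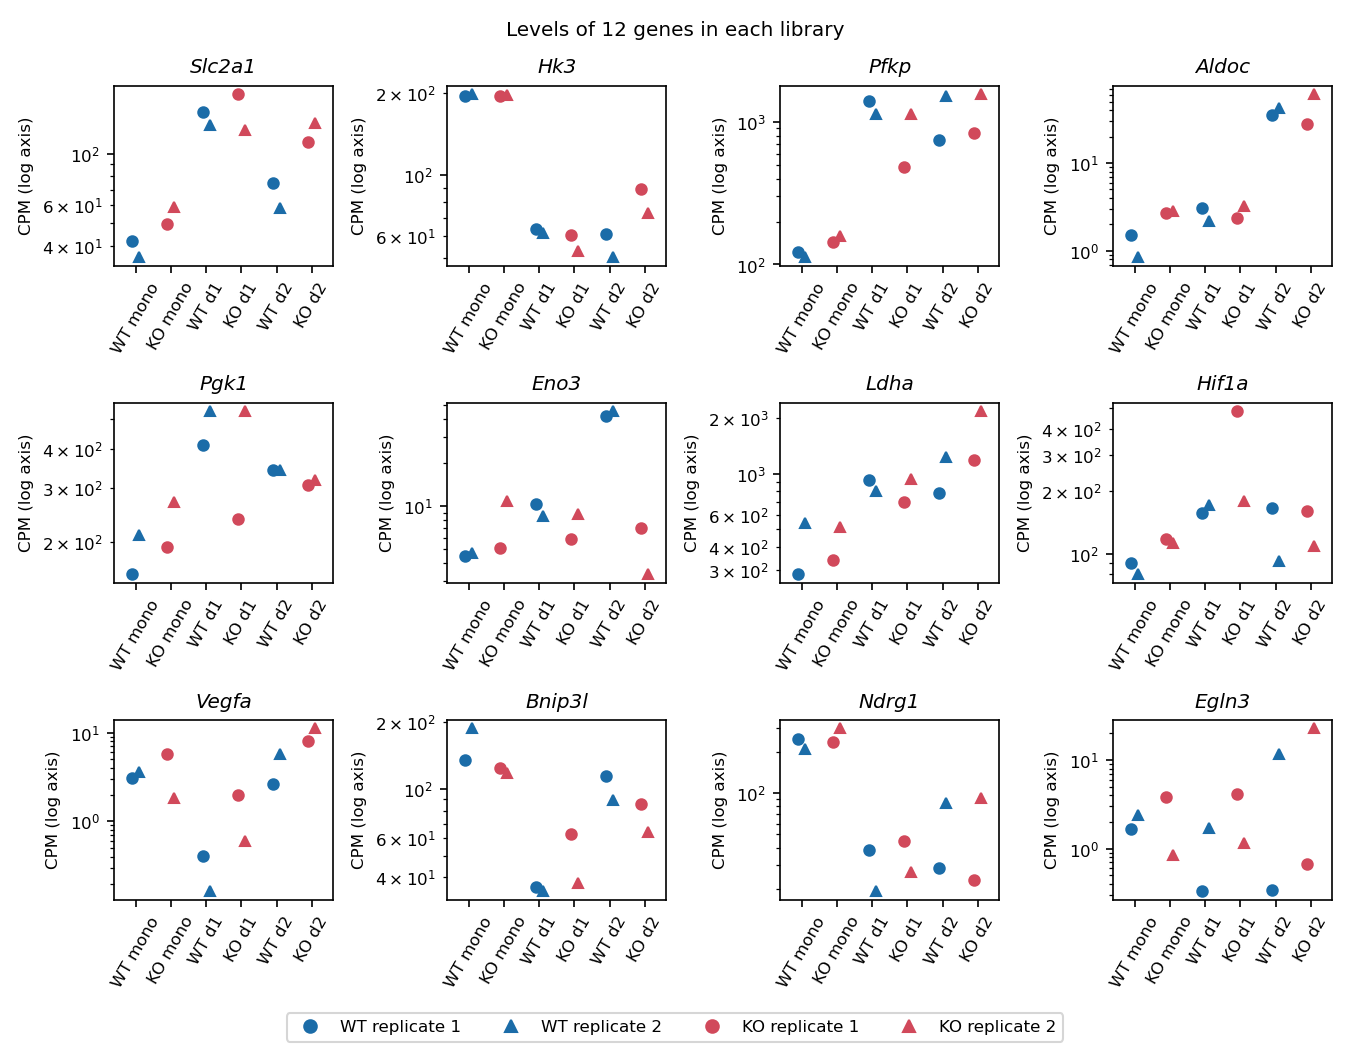
CPM on a log axis (vertical) in the 6 groups (horizontal) for 12 genes, with 1 point per library, circles for replicate 1 and triangles for replicate 2, WT in blue and KO in red. The plot shows the high Hif1a value of 485 CPM in the library labelled KO day 1 replicate 1, Eno3 at 42.0 and 45.6 CPM only in WT day 2, and Egln3 and Ndrg1 split by replicate at day 2.

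The spread of Egln3, Ndrg1 and Slc2a3 at day 2 followed the experiment. Both replicate 2 libraries lay above both replicate 1 libraries for 9 of the 32 genes, where 23.1% of all genes did so, and below them for 7, where 24.2% did. These counts are near the background and are not a result about the 32 genes. The ratio of the replicate 2 mean to the replicate 1 mean was 34.1 for Egln3, 3.44 for Ndrg1, 2.86 for Slc2a3, 1.95 for Pfkp and 1.73 for Ldha. It was 0.422 for Pfkfb3 and 0.619 for Hif1a. With 2 libraries on each side these ratios carry no test.

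In the edgeR test without the replicate block 0 of the 32 genes differed between KO and WT at each stage, and with the block by experiment 1 did, Eno3 at day 2 (-3.17, adjusted p = 0.0209). Without the block 0% of all genes were called between KO and WT monocytes, 0% at day 1 and 0.0998% at day 2. Unadjusted p fell below 0.05 for 1 of the 32 in monocytes (Aldoc, 1.19 ± 0.48), for 2 at day 1 (Vegfa, 2.10 ± 0.91, and Hif1a, 1.01 ± 0.44) and for 3 at day 2 (Eno3, Slc2a1 and Hk3). Over all 14034 genes it did so for 557, 252 and 444, and the counts among the 32 are not read as a result about them. The Hif1a log2 ratio at day 1 was 1.62 between the replicate 1 libraries and 0.06 between those of replicate 2. DESeq2 called 0, 0 and 1 of the 32, the last being Eno3. The shares of all genes called by DESeq2 or with the block are not given, and those counts are not read as a result about the 32 genes. At day 2 edgeR also called Eno3 with no low-count filter and without both libraries that stood apart. Slc2a1 at day 2 was 74.4 and 58.5 CPM in WT against 113 and 136 CPM in KO without overlap, and its log2 fold change was 0.91 ± 0.27 (edgeR adjusted p = 0.699). The Hk3 difference at day 2 was 0.55 ± 0.24 (adjusted p = 1). The median over the 32 genes was 0.18 in monocytes, 0.08 at day 1 and 0.17 at day 2, beside 0, 0 and 0.01 over all genes. The log2 fold change was above 0 for 24, 18 and 25 of the 32. The share of all genes above 0 is not given, and these counts are not read as a result about the 32 genes.

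The change with culture was also compared between genotypes. The test of that difference called 0 of 32 genes for day 1 against monocytes, day 2 against monocytes and day 2 against day 1, where it called 0%, 0.0285% and 0% of all genes. Unadjusted p was below 0.05 for 1 of the 32 in each (Eno2, Eno3 and Eno3), beside 400, 478 and 340 of all 14034 genes. DESeq2 called 0, 1 and 0 of the 32. Its shares of all genes are not given, and its counts are not read as a result about the 32 genes. A gene that passed in one genotype and not in the other, such as Pkm or Ldha, is therefore not shown to differ between them. The plot of fold changes gives both genotypes side by side.

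**Figure D4:**
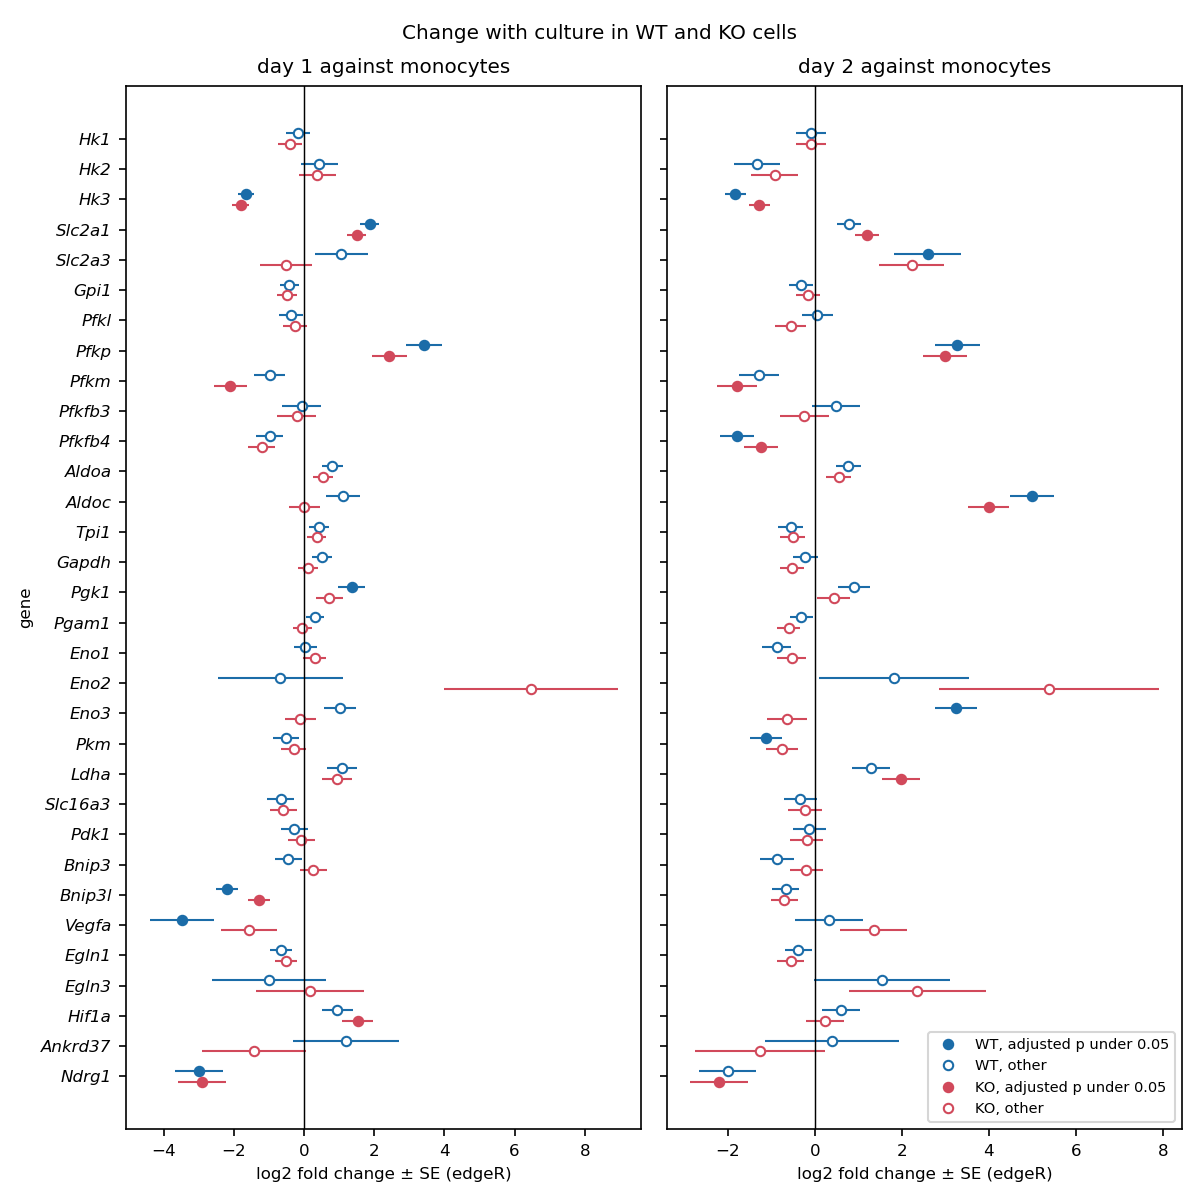
Log2 fold change against monocytes of the same genotype (horizontal axis, bars are ± SE from edgeR) for the 32 genes (vertical axis), day 1 on the left and day 2 on the right, WT in blue and KO in red, filled where the adjusted p was under 0.05. Pfkp lies at 3.43 and 2.43 at day 1 in WT and KO, and Eno3 at 3.24 and -0.65 at day 2.

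Other genes of the same pathways were listed by name, with earlier results of these data known, and the lists were not tested against the 32 genes. Of 31 further glycolysis genes 23 were tested, and 3 rose and 3 fell at WT day 1, where 11.4% of all genes rose and 10.1% fell (median 0.42, beside 0.06 over all genes). Tigar, which lowers fructose 2,6-bisphosphate, rose from 13.02 ± 5.30 to 45.8 ± 1.30 CPM (mean ± SD, n = 2; 1.82 ± 0.32, edgeR adjusted p = 0.00333). Slc16a1, the monocarboxylate transporter MCT1, rose from 7.49 ± 6.42 to 53.1 ± 15.9 CPM (2.81 ± 0.65, adjusted p = 0.0126). Pdp1, the phosphatase that reactivates pyruvate dehydrogenase, rose from 6.96 ± 0.743 to 21.3 ± 0.343 CPM (1.61 ± 0.36, adjusted p = 0.0111). Slc2a9, which carries urate and hexoses, fell from 19.3 ± 8.85 to 5.70 ± 2.10 CPM (-1.76 ± 0.42, adjusted p = 0.0151). Ldhb, the subunit of lactate dehydrogenase typical of heart, fell from 28.9 ± 5.03 to 3.89 ± 2.46 CPM (-2.89 ± 0.74, adjusted p = 0.0200). In KO cells 3 rose and 1 fell at day 1, beside 7.7% and 6.14% of all genes, Tigar among those that rose (1.79 ± 0.32, adjusted p = 0.00497). Pdha1 and Slc2a6, the most abundant genes of the list that did not pass, were at 217 ± 37.9 and 117 ± 1.10 CPM at WT day 1.

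Of 36 further genes of the HIF pathway 30 were tested, and 7 rose and 4 fell at WT day 1, beside 11.4% and 10.1% of all genes (median 0.23, beside 0.06). At WT day 2 against monocytes 6 rose and 2 fell, beside 12.7% and 9.89% of all genes. In KO 6 rose and 3 fell at day 1, beside 7.7% and 6.14%, and 7 rose and 1 fell at day 2, beside 9.95% and 7.57%. Bhlhe40, a transcriptional repressor, rose from 6.14 ± 0.633 CPM in WT monocytes to 259 ± 23.7 CPM at day 1 (5.40 ± 0.36, edgeR adjusted p = 2.77e-05). Ier3, an early response gene, rose from 7.05 ± 3.15 to 105.6 ± 33.4 CPM (3.91 ± 0.39, adjusted p = 0.000232). Tfrc, the transferrin receptor, rose from 9.13 ± 3.67 to 176 ± 7.51 CPM (4.26 ± 0.61, adjusted p = 0.00129). Selenbp1, a selenium-binding protein, fell from 51.7 ± 5.67 to 4.15 ± 1.02 CPM (-3.63 ± 0.50, adjusted p = 0.00101). Mxi1, an antagonist of Myc, fell from 49.0 ± 13.1 to 10.9 ± 3.51 CPM (-2.17 ± 0.36, adjusted p = 0.00264). Plin2 and Hmox1, abundant and not called, were at 198 ± 19.4 and 92.5 ± 59.7 CPM at WT day 1. Many of these genes also answer to signals other than oxygen.

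The pentose phosphate pathway, which branches off after hexokinase to make NADPH, had 7 genes tested, of which 1 fell at WT day 1 and 2 fell at WT day 2, where 10.1% and 9.89% of all genes fell. Counts this small are not a result about the pathway. Its median was -0.58 and -0.50, beside 0.06 and 0.09 over all genes. Taldo1, the transaldolase, fell from 1025 ± 562 CPM in WT monocytes to 303 ± 27.6 CPM at day 1 (-1.76 ± 0.39, edgeR adjusted p = 0.0110) and 346 ± 27.4 CPM at day 2 (-1.56 ± 0.39, adjusted p = 0.0163). Rpia, the ribose 5-phosphate isomerase, was the other gene that fell at day 2, from 58.5 ± 16.6 to 29.2 ± 4.09 CPM (-1.004 ± 0.29, adjusted p = 0.0302). Tkt, the transketolase, and Pgd, the second NADPH-forming step, did not pass, at 562 ± 184 and 474 ± 1.83 CPM at WT day 1. In KO cells 1 of the 7 fell at day 2, beside 7.57% of all genes.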

How the data were processed

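Poly(A) RNA was measured in 12 libraries in 6 groups of 2, from independent experiments per the labels' protocols. The deposited values are read counts per gene without normalization. Trimmomatic 0.35, STAR 2.5.1b and GRCm38 are named, per the submitters' processing notes. No annotation release is named there. Column 4 was used, the reverse-stranded counts. Lines naming no gene were left out of library sizes and held unmapped reads (2.65% to 7.91%), multimapping reads (5.29% to 8.94%), reads with no feature (5.24% to 11.2%) and ambiguous reads (1.34% to 1.76%). Symbols and exon lengths came from GENCODE M21, which matched 47224 of 47643 IDs.

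The test was that of edgeR 4.0.16, run under R 4.3.3 (TMM, filterByExpr, robust quasi-likelihood, 1 mean per group over all 12 libraries, 6 residual degrees of freedom, two-sided) in 9 pairwise and 3 interaction contrasts, with Benjamini-Hochberg adjustment over 14034 genes and a threshold of 0.05. P-values measure the spread between 2 libraries per group, pooled over groups, and the number of mice behind each library is not in the labels.

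Same-numbered libraries of a stage shared an experiment by the dates in the file names. Their deviations from group means correlated across genes at 0.236 (KO and WT monocytes), 0.194 (day 1), 0.657 (day 2), 0.276 (WT monocytes and day 1) and 0.128 (KO monocytes and day 1), so the numbers were taken as pairs. The day 1 replicate 2 files carry 16 hours in their names and 1 day in their labels.

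The 32 genes and all other lists were chosen with earlier results of these data known. Genes of the 32 that were called with a log2 fold change of at least 1 in size and a mean of at least 5 CPM in a group, and Hif1a, Gapdh and Pkm, are given in every library, and the others by range. Of each other list, up to 3 called genes per direction and up to 2 abundant genes not called could be named. Alternatives were RLE scaling, no low-count filter, a fit of only the groups compared, DESeq2 1.42.0, a replicate block by experiment, leaving out each library, and dropping the pair that stood apart (the KO day 1 library labelled replicate 1 and replicate 2 of WT monocytes).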

Additional observations from a re-analysis of the deposited data

How the results depend on the processing

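Counts of called genes among the 32 moved as follows. The shares of all genes called in these alternatives are not given, so none of these counts is read as a result about the 32 genes. At WT day 1 against monocytes 5 rose with the replicate block (3 without), and leaving out single libraries gave 2 to 5 falls. At WT day 2 against monocytes DESeq2 gave 7 rises and 6 falls, no low-count filter 5 falls, and single libraries left out 2 to 5 falls. At WT day 2 against day 1, no filter gave 2 falls, the compared groups only 3, DESeq2 3 and dropping both libraries that stood apart 4, and without any single library 1 rise and 0 falls were left. At KO day 1 against monocytes single libraries left out gave 0 to 2 rises and 1 to 4 falls. At KO day 2 against monocytes they gave 2 to 4 rises and 1 fall. At KO day 2 against day 1, no filter gave 3 rises and 2 falls, DESeq2 3 rises, the compared groups only 0 rises, and single libraries left out 0 to 1 falls. For KO against WT at day 2, no filter, the replicate block, DESeq2 and dropping both libraries each gave 1 fall (Eno3) in place of 0. So did no filter and DESeq2 for the genotype difference in the change from monocytes to day 2 (1 fall), and no filter for that from day 1 (1 fall). The cause was not tested.

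Signs turned for Hk2 and Egln3, which were not called in these comparisons with all libraries and the low-count filter. Hk2 at WT day 1 ran from -0.30 without WT monocytes replicate 2 (also without both libraries) to 1.84 without replicate 1, and at WT day 2 from -2.05 without replicate 2 to 0.073 without replicate 1. Egln3 ran from -1.54 without WT day 2 replicate 2 to 4.13 without WT day 1 replicate 2 for WT day 2 against day 1. For KO day 2 against monocytes it ran from -1.80 without KO day 2 replicate 2 to 3.76 without KO monocytes replicate 1.

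The paired fit with the replicate block could not be made for day 2 against earlier stages, which share no experiment. It changed no other call than those given for Pfkfb4, Aldoa, Ldha and Eno3. Leaving out a library left 1 in its group, which was assumed to vary like the other groups. Depth limits Eno2, Egln3, Ankrd37 and Vegfa, with few reads per library. A count of 0 allows up to 3 counts, for counting error only.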
